A study of Mus musculus with 2 samples.

Results

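Distal chromatin regions that were open in extraembryonic ectoderm were examined in mouse embryos of embryonic day 7.0. The members were 1000 autosomal accessibility peaks, of 229480 peaks in all, that lay more than 1000 bp from every transcription start listed in the files. They were chosen by their own accessibility. First, 700 droplet barcodes (the class) were taken as those highest in the mean ln(1 + UMIs per 10000) of the RNA of Esrrb, Duox2, Nat8l, Htra1 and Nr0b1, among 11605 barcodes with 3000 to 30000 RNA UMIs (unique molecules) and at least 2000 peak counts. Then the distal peaks with at least 100 counts in the class, 15472 of 199715 and here called candidates, were ranked by their CPM (counts per 1000000 counts at all peaks) in the class over those in the other 10905 barcodes, and the 1000 highest were kept. The fold of each member is therefore a description of how it was chosen and carries no test.

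Nuclear RNA and open chromatin had been read from the same nuclei, and all 15341 barcodes were shared by both assays. The material was a pool of whole E7.0 embryos without further treatment in the protocol, and there was 1 library for each assay. The age and title entries gave this stage, while the tissue, source and cell type entries named gut and goblet cells and the strain entry read RedMUC298trTg, a genotype about which nothing more was given. The files do not tell which embryo a nucleus came from, so no comparison has biological replicates and no test across samples was possible. Every interval below is an exact 95% interval. Those of ratios cover counting error only. Those of shares are binomial over genes or peaks taken as independent, although neighbouring genes can share a member. None covers differences between embryos. The class held 10515140 UMIs and 13556270 peak counts, with a median of 14008 UMIs and 18920.5 peak counts per barcode, against 11199 and 19516 in the other barcodes in range. The genome build was mm10 (GRCm38).

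The extraembryonic ectoderm is the trophoblast tissue that borders the epiblast after implantation and holds the progenitors of the placental trophoblast. It is known for the transcription factors Cdx2, Eomes, Elf5, Tfap2c and Esrrb, for FGF signals that keep its progenitors dividing, and for Bmp4, which it sends to the epiblast. Distal accessible regions often include enhancers, short stretches to which transcription factors bind and from which genes at a distance can be activated. Accessibility alone does not show that a region acts as an enhancer, nor on which gene.

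The RNA of the class carried the markers of its label. Of 9 extraembryonic ectoderm genes that the rule did not use, 8 were at least 2-fold higher in the class than in the other barcodes, and together they made up 1030 CPM of the RNA against 269. Elf5, an ETS-family factor of trophoblast progenitors, stood at 222 against 20.8 CPM. Cdx2, the homeobox factor that founds the trophoblast lineage, stood at 90.7 against 12.9 CPM. Eomes, a T-box factor that the primitive streak also expresses, was the exception at 177 against 140 CPM. Most marker lists of other tissues were lower in sum, with these exceptions. The extraembryonic mesoderm list summed to 240 against 105 CPM through Bmp4 (217 against 21.5 CPM), 4 of its 5 genes with enough UMIs being at least 2-fold lower. The immune list summed to 8.56 against 5.90 CPM through Laptm5, with Ptprc and Tyrobp at 0 UMIs in the class. Gcm1 and Pcdh12 of the ectoplacental cone list were at least 2-fold higher, from 19 and 12 class UMIs, while the list summed to 45.9 against 190 CPM. All 8 visceral endoderm genes were at least 2-fold lower, 5 of 6 embryonic mesoderm genes were, and the 7 epiblast genes summed to 1507 against 1566 CPM, with Utf1 and Pou3f1 at least 2-fold higher and 4 others at least 2-fold lower. The defining goblet cell mucin Muc2 had 0 UMIs in the class, and the goblet and intestine list summed to 6.56 CPM. The class is a range of a score, not a sharp cell type: 56 of its barcodes and 51 other barcodes lay within 5% of the score at which it was cut.

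No genome sequence was used here, so most members have coordinates only. For 8 members, RefSeq places a transcription start that the files do not list, or the window of a listed start reaches into the peak, and for these the RefSeq table of GRCm38.p6 promoters holds 300 bases. The sequences below show what such DNA looks like in the member of highest rank with a window, in a member where transcripts start on both strands, and in a member inside a protein-coding gene. Each window runs from 250 bases before to 50 bases after the start, 5′ to 3′ on the strand of the transcript. Capitals mark matches, on either strand, to short motifs of factors known in trophoblast: GCCNNNGGC for TFAP2, GGAATG for TEAD, AGGAAGT for ETS, CAAGGTCA for ESRRB or NR5A2, AGATAA for the GATA family, TTTATGG for CDX and GGTGTGA for T-box factors. None of these matches overlaps another.
Gm46781: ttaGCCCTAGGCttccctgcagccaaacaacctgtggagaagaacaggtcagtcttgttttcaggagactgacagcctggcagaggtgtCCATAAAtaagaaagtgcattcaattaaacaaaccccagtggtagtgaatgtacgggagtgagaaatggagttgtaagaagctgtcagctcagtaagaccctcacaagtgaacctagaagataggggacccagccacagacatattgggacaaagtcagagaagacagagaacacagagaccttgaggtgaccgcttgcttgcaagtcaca
Gm46425: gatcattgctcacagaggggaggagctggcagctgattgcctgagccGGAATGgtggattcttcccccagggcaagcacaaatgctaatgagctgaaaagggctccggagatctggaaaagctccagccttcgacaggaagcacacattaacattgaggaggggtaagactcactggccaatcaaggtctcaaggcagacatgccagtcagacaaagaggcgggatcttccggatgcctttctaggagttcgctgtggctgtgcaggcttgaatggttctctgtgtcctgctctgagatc
Rab15: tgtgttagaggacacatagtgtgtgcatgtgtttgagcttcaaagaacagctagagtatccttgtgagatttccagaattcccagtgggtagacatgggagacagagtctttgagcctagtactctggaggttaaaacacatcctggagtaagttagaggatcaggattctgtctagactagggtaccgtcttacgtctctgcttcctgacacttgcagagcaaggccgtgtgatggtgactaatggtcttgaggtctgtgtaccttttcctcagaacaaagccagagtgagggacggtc

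The Gm46781 window, chr2:174606965-174607264 on the minus strand, lies wholly inside the member of rank 25 (chr2:174606875-174607722, 369 class counts, 26.9-fold), which is 35812 bp from the nearest listed start, that of Zfp831. It held 1 TFAP2 match and 1 CDX match. The Gm46425 window, chr13:65950339-65950638 on the plus strand, lies inside the member of rank 434 (179 class counts, 18.5-fold) and held 1 TEAD match. On the opposite strand of the same peak RefSeq places 2 starts of Gm32476, whose windows overlap this one. The Rab15 window, chr12:76813807-76814106 on the minus strand, lies inside the member of rank 680 (291 class counts, 16.6-fold), 7776 bp from the start of Rab15 listed in the files, and held none of the motifs in capitals. Rab15 encodes a small GTPase of endosome traffic. Such short motifs are common: TFAP2 matches were in 16.6% of all 32851 promoter windows of this length in the table, TEAD in 14.7%, ETS in 9.35%, GATA in 11.2%, T-box in 3.98%, CDX in 2.75% and ESRRB or NR5A2 in 1.56%. Of the 10 windows that touch members, 3 held TEAD, 1 held TFAP2, 1 held CDX, and none held the ETS, GATA, T-box or ESRRB letters. The TEAD windows lie at the peaks of rank 434 and 487. At rank 434, 2 overlapping windows on opposite strands hold the same TEAD match, which is thus counted in both. A match is a description of letters and not a measured binding site.

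The members took 1.86% of all peak counts of the class and 0.102% of those of the other barcodes, a pooled ratio of 18.3 (18.2 to 18.5). Single members ranged from 39.3-fold to 14.8-fold with a median of 18.0-fold, while the median over all candidates was 2.34-fold. The rule fixes the share of candidates at or over the last member's fold at 6.46%, and nothing is read from it. Depth differed widely among them, from 100 to 1228 class counts (median 219), so the folds of the sparse members are loosely known. The rank 1 member had an interval of 26.3 to 60.0, wide enough to include the folds of all of the 15 highest. There was no step at the edge of the set: the last 5 members lay between 14.78 and 14.76-fold, and the 5 candidates just outside between 14.76 and 14.74-fold. The last members were nearest to C7, H2afy2, Gm30371, Rere and 4930543E12Rik, and the first candidates outside to Rsu1, Gm33103, Map4k3, Gm31522 and Gm49622.

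**Figure D1:**
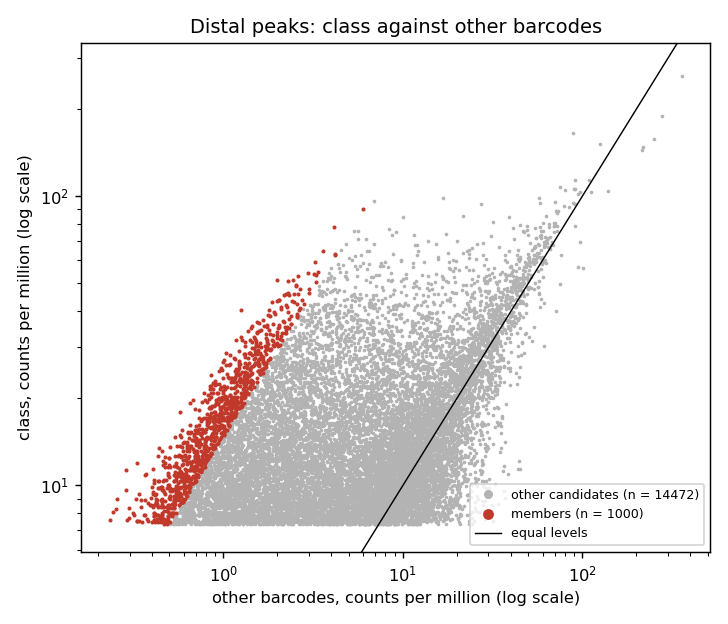
CPM of each candidate distal peak in the class (vertical axis) against the other barcodes in range (horizontal axis), both on log scales, with the 1000 members in red and the other 14472 candidates in grey. The members form the left edge of a continuous cloud, from 7.38 to 90.6 CPM in the class, with no gap between them and the next candidates.

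The 15 members of highest fold were mostly sparse, and most had a nearest listed gene with too few UMIs to compare. The first, chr8:66825091-66825860, had 153 counts in the class and 64 in the more numerous other barcodes, and lay 34357 bp from the start of Naf1, an H/ACA ribonucleoprotein assembly factor whose RNA stood at 149 against 152 CPM. The second, chr15:67471704-67472588, lay 244935 bp from its nearest start, that of 1700012I11Rik. The third, chr7:140519800-140520697, was nearest to the olfactory receptor gene Olfr536, which had no UMI in either group. Rank 8, chr14:68020337-68021221, was the deepest of the 15, with 548 counts, a 32.2-fold ratio (26.4 to 39.5) and a count in 30.3% of class barcodes against 1.19% of the others. It lay 30109 bp from Gm31107. Ranks 5 and 6 fell in a single group of 4 members within chr12:19150517-19193578. The nearest listed genes of ranks 5 and 6, Gm49957 and Gm40849, were 102203 and 105811 bp away and had RNA log2 ratios of 1.34 and 2.39. The others were nearest to Gm10845 (rank 4), the transporter gene Abcc10 (rank 7), the hydroxyacid oxidase gene Hao1 (rank 9), Dnah7c, Gm12415, Gm11750, Gm15584, E330034G19Rik and the keratin gene Krt16 (ranks 10 to 15). Of these 15 nearest genes, only Gm49957 and Gm40849 had RNA at least 2-fold higher in the class. Abcc10 came next at a log2 ratio of 0.98, Naf1, 1700012I11Rik and Dnah7c were between -0.52 and -0.03, and the other 9 had too few UMIs to compare.

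The pooled values were next spread over single nuclei. The members were chosen on the counts of these same barcodes, so the gap between the groups restates the choice, and only the spread within each group is described. A class barcode had a median of 1.92% of its peak counts at the members (5th to 95th percentile 0.948% to 2.80%) and a count at a median of 155 of the 1000 members. An other barcode had a median of 0.0364% and a count at 4. Single members were seen in few nuclei: over the 1000, the median member had a count in 14.4% of class barcodes (6.14% to 55.1%) and in 0.903% of the others. Only 1 class barcode lay below the 95th percentile of the others (0.504%). Yet 346 of the other barcodes lay above the 5th percentile of the class and 107 above its median.

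Most of those barcodes came next in the RNA score, with 237 of the 346 among the next 350 and 309 among the next 700, but their scores ran from the cut down to 0 (median 0.53). The 350 barcodes next in score held 39.2% of all the counts at members outside the class, and the next 700 held 54.2%. Set against the remaining 10205 barcodes, whose share at the members was 0.0495%, the pooled ratio of the class rose to 37.6. The pooled ratio of 18.3 therefore depends on which barcodes stand in the comparison, and both ratios reuse the counts that chose the members. Doublet calls made up 5.86% of the class (41 barcodes) and 6.25% of the others.

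**Figure D2:**
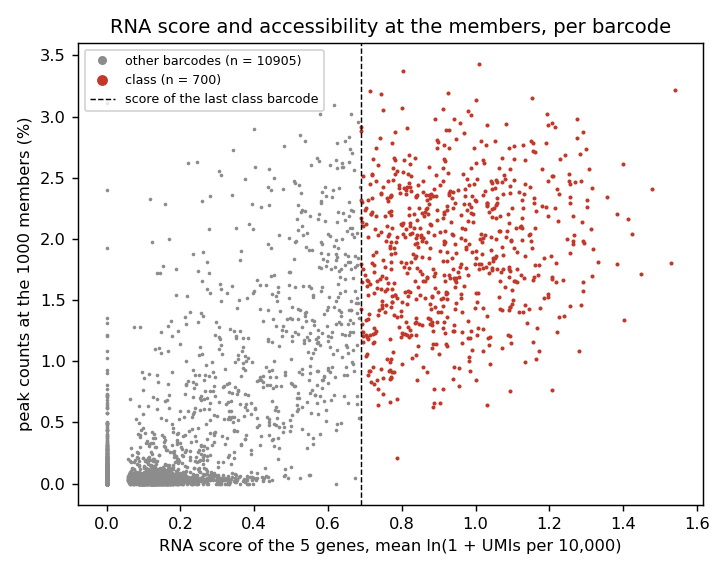
For each of the 11605 barcodes in range, the percent of peak counts at the members (vertical axis) against the RNA score of the 5 genes that chose the class (horizontal axis); the dashed line is the lowest score in the class. Nearly all class barcodes lie above 0.5%, and a band of other barcodes with scores under the line reaches the same height, while most others lie near 0.

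The accessibility of the members was next followed into other cell types of the embryo. For each of 9 types, the barcodes highest in the RNA of that type's marker list were taken, leaving out class barcodes and 161 barcodes that fell under more than 1 type. These groups are ranges of a score as well, and their RNA was not used to choose the members. They are part of the other barcodes, however, which entered the rule, so low values in them are partly fixed by the choice and are given as a description. All 9 together (1927 barcodes) had 0.0567% of their counts at the members, 32.9 times less than the class.

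The lowest level was in visceral endoderm, the epithelium that covers the embryo: 0.0310% of counts, so that the class was 60.2-fold higher (56.4 to 64.2). Embryonic mesoderm, epiblast, anterior streak with node and definitive endoderm, and primitive streak lay close together, at 0.0413%, 0.0436%, 0.0439% and 0.0448%. The ratios to the class of these 4 were 45.1, 42.7, 42.5 and 41.6, and their intervals overlapped (39.2 to 47.8 over all of them). Haemato-endothelial progenitors, the first blood and vessel cells, stood higher at 0.0700%, with the class 26.6-fold higher (25.1 to 28.2). They carried 800 CPM of the ectoplacental cone list, of which Flt1, a VEGF receptor gene that vessel cells express too, gave 771 CPM. Flt1 also gave 621 of the 2112 CPM of that list in the ectoplacental cone group itself. Prl3d1, Plac1 and Ascl2 differed, with 4, 30 and 3 UMIs in the progenitors against 957, 675 and 220 in the ectoplacental cone group. Tpbpa, Prl3b1 and Gcm1 had at most 1 UMI in either group and do not separate them. The part of the transcripts of this list in the result was not tested. Extraembryonic mesoderm stood at 0.0878%, but 5 of its 265 barcodes had class-like shares and the median barcode was at 0.0393%, as in the primitive streak. Its marker list includes Bmp4, which was itself 10.1-fold higher in the class, and the part of this overlap in the result was not tested.

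With the numbers of barcodes fixed for each type, parietal endoderm and the ectoplacental cone and giant cell group had the highest levels outside the class. This order depended on those numbers: with 1.5 times as many barcodes per type, extraembryonic mesoderm was highest at 0.118%, followed by ectoplacental cone at 0.103% and parietal endoderm at 0.0927%. Parietal endoderm, which lays down the outer basement membrane of the conceptus, had 0.111% of its counts at the members (class 16.8-fold higher, 15.8 to 18.0). That group also carried 3836 CPM of the visceral endoderm list and 146 CPM of the decidua list, against 1.81 CPM of the decidua list in the class. The decidua signal there came from 141 UMIs of Igfbp1 (121 CPM) and 29 UMIs of Cryab, with Prl8a2, Dcn and Hoxa10 at 0 UMIs, and its part in the result was not tested. The ectoplacental cone, the trophoblast that lies above the extraembryonic ectoderm and gives rise to invading and giant cells, had 0.108% (17.2-fold, 16.2 to 18.2). Both intervals overlap, and neither group had a barcode above the 5th percentile of the class. The medians per barcode were 0.0695% and 0.0885%, higher than in the other 7 types, where they ran from 0.0265% to 0.0531%. The RNA of the 9 extraembryonic ectoderm genes outside the rule came to 790 CPM in the ectoplacental cone group, against 1030 CPM in the class. That list, which includes Eomes, also came to 472 CPM in primitive streak and 429 CPM in embryonic mesoderm. In the remaining types it ran from 107 to 277 CPM. The 5 rule genes stood at 20.04 CPM in the ectoplacental cone group against 982 CPM in the class.

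**Figure D3:**
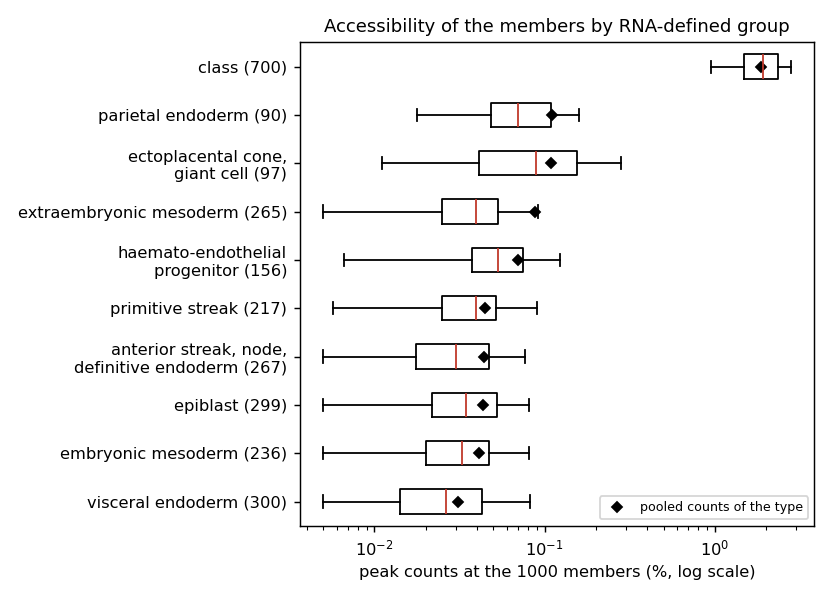
Percent of each barcode's peak counts that fell at the members (log scale), for the class and 9 groups of barcodes defined by marker RNA (number of barcodes in parentheses); boxes span the quartiles, red lines are medians, whiskers reach the 5th and 95th percentiles, barcodes under 0.005% are drawn at 0.005%, and diamonds are the pooled share of each group. The class lies over 10-fold above each of the 9 other groups, and parietal endoderm and ectoplacental cone have the highest medians among these.

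Few members were nearly as accessible in another type as in the class. A level over 50% of that in the class was found at 11 members in parietal endoderm, at 7 in ectoplacental cone and at 0 in each of the other 7 types. A level over 25% of that in the class was found at 41 members in parietal endoderm, 40 in ectoplacental cone, 17 in haemato-endothelial progenitors and 1 in extraembryonic mesoderm. Parietal endoderm, ectoplacental cone and haemato-endothelial progenitors also had the fewest peak counts, 1584549, 2075176 and 3012732, against 4445064 or more in the rest. With fewer peak counts, fewer counts at a member pass either mark, so these numbers are not a comparison between types. Many members had no count at all in these small groups, 516 of 1000 in parietal endoderm and 513 in ectoplacental cone. There 3 counts would already come to 1.89 and 1.45 CPM, so a count of 0 does not show that a member is closed.

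The members below were singled out after their values were seen. Those most accessible in the ectoplacental cone group lay at chr7:122018140-122018908 inside Gga2, a Golgi adaptor gene (17.8 CPM against 41.1 in the class, from 37 counts), at chr11:100951739-100952671 near Stat3, the cytokine-activated transcription factor (17.3 against 38.7 CPM), and at chr9:104321137-104322033 near Acpp (16.9 against 54.7 CPM). At all 3 the level in parietal endoderm was at most 3.79 CPM. Those most accessible in parietal endoderm lay at chr12:65114832-65115732 inside Fancm, a DNA repair helicase gene (21.5 CPM against 26.4 in the class, from 34 counts), at chr12:99923129-99924022 inside Tdp1 (21.5 against 43.7 CPM), at chr12:102326279-102327378 inside Rin3 (20.8 against 49.3 CPM) and at chr17:87736064-87736901 near the potassium channel gene Kcnk12 (18.9 against 23.6 CPM). The Kcnk12 member had 0 counts in ectoplacental cone. At chr8:119583138-119583970 near Dnaaf1 the level in parietal endoderm, 18.9 CPM from 30 counts, was above the 17.5 CPM of the class. The Rin3 member was the exception among those named here, with a raised level in both groups (8.67 CPM in ectoplacental cone).

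**Figure D4:**
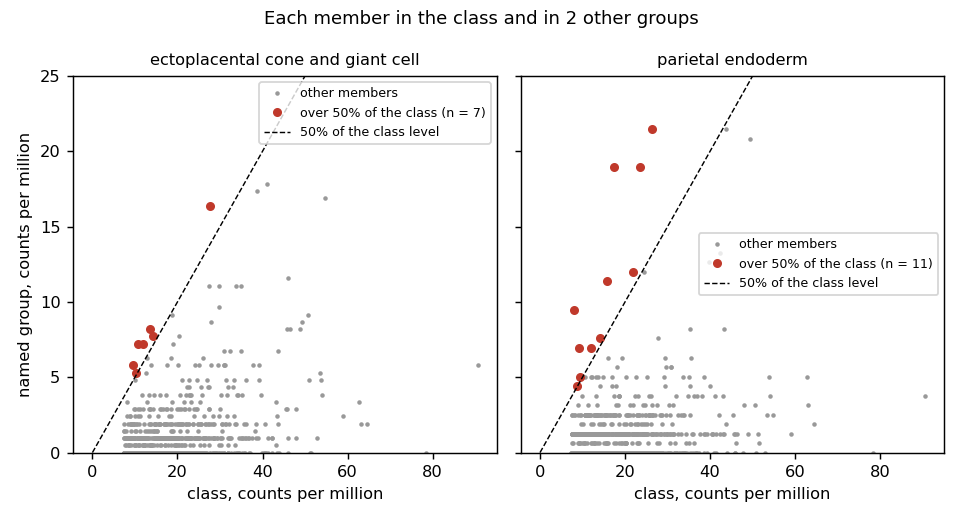
CPM of each member in ectoplacental cone and giant cell barcodes (left) and in parietal endoderm barcodes (right), against its level in the class; the dashed line is 50% of the class level. Most members lie near 0 in both groups, 7 lie above the line in the left panel and 11 in the right panel.

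The members lay farther from genes than other candidates did. The median distance to the nearest listed start was 26560.5 bp (quartiles 9733 and 64651), against 13177 bp over all candidates. Of the 1000, 154 (15.4%) lay more than 100000 bp from any start, against 5.31% of the candidates, and 25.6% against 41.5% lay within 10000 bp. RefSeq protein-coding genes held 36.3% of the members and 48.7% of the candidates. Long distances were not particular to these peaks. When the same steps were run on 700 barcodes highest in epiblast or visceral endoderm RNA, the median distances were 26308.5 and 18883.5 bp and the shares over 100000 bp were 18.8% and 9.20%. Protein-coding genes held 46.9% and 45.4% of those peaks, more than of the members. The folds that chose them were far lower, with medians of 2.66 and 7.63, so the sets were not chosen at the same strength. Neither shared a peak with the members, but nearly all of the class stood in the denominator of both sets. The lack of shared peaks is thus largely fixed by the rule, and nothing is read from it.

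Few members lay together: 160 had another within 50000 bp, against 125 peaks of the epiblast set and 181 of the visceral endoderm set. There were 72 pairs, 4 groups of 3 and 1 group of 4 (on chromosome 12, above). The groups of 3 were inside Htra1, inside Esrrb, near the T-cell surface gene Cd2 (chr3:101205131-101244603) and inside Nrp2, a semaphorin and VEGF co-receptor gene (chr1:62737866-62773021, nearest to the start of Gm29083). Members were found on every autosome, from 4.9% of the candidates of a chromosome to 9.38%, the highest share being on chromosome 12.

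The RNA of nearby genes did not enter the choice of members, apart from that of the rule genes. Of 905 genes with at least 50 UMIs and a member within 50000 bp of a start, 186 (20.6%, 18.0 to 23.3) had RNA at least 2-fold higher in the class, against 6.58% of all 17670 genes tested. Without the 4 autosomal rule genes it was 182 of 901 (20.2%). RNA at least 2-fold lower was found in 93 of them (10.3%), against 22.7% of all genes and 17.9% of genes with a candidate but no member. The median log2 ratio was 0.24, against -0.22 over all genes. The contrast was smaller for the nearest genes of the members, at any distance: of 565 with enough UMIs, 109 (19.3%) were at least 2-fold higher and 99 (17.5%) at least 2-fold lower, with a median log2 ratio of 0.09. Genes with a candidate but no member within 50000 bp had a share of 7.53% (7.02 to 8.07). Members and RNA came from the same barcodes, so the class shares its depth and makeup in both measures.

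The share fell with distance from the member. It was 30.5% (61 of 200 genes) where the nearest member lay within 10000 bp, 24.9% from there to 20000 bp, 15.5% to 50000 bp, 10.6% to 100000 bp, 7.97% to 200000 bp, 6.25% to 500000 bp and 4.75% beyond. For genes without a member within 50000 bp, the share by distance to the nearest other candidate fell in the same way but from a lower level, from 10.7% within 10000 bp to 6.41% and 4.17% in the next bins. With the rule genes left out, 25 of 87 genes with 2 or 3 members were at least 2-fold higher (28.7%, 19.5 to 39.4), against 157 of 814 with 1 member (19.3%, 16.6 to 22.2), and these intervals overlap.

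**Figure D5:**
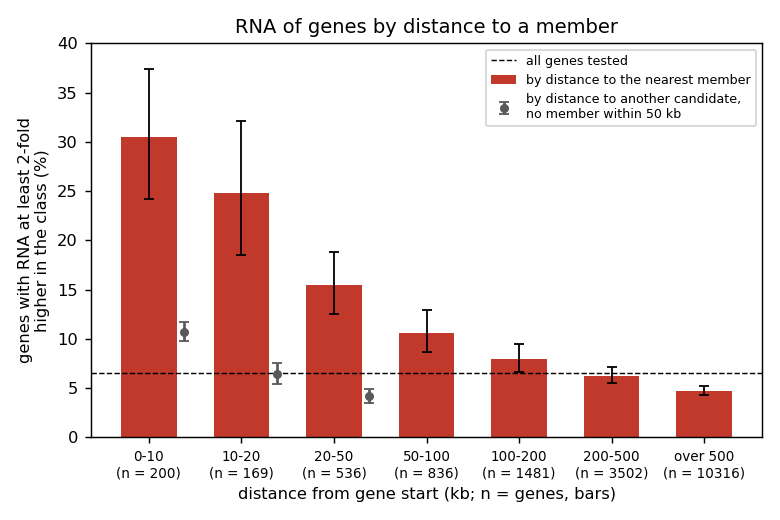
Percent of genes with RNA at least 2-fold higher in the class, by distance from the gene's start to the nearest member (red bars; exact 95% binomial intervals, n genes below each bar), and for genes with no member within 50 kb by distance to the nearest other candidate (grey points, same intervals). The dashed line is the 6.58% of all genes tested; the bars fall from 30.5% to 4.75%, and the grey points lie below the bars at the same distance.

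The share also followed the rank of the peaks. In successive blocks of 1000 candidates it was 20.6% for ranks 1 to 1000, 16.5% for 1001 to 2000 (11.2 to 14.8-fold), 14.9% for 2001 to 3000 and 13.2% for 3001 to 4000, with 15.5% for 4001 to 5000 out of that order. It was 8.48% for ranks 12001 to 13000, where class and other barcodes were nearly alike (1.09 to 0.968-fold), and 5.52% for the last 472 candidates, which were lower in the class. A gene can be near peaks of several blocks, so these shares are not independent. The line at 1000 thus divided a gradient in RNA as it did in accessibility.

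Most members had no such gene near them. Of 1000 members, 694 lay within 50000 bp of a start, 533 had a gene with enough UMIs there, and 171 of these 533 (32.1%, 28.1 to 36.2) had at least 1 gene 2-fold higher in the class. Of the candidates that are no member, 11332 had such a gene near them and 2520 of these (22.2%, 21.5 to 23.0) had at least 1 that was 2-fold higher, with a mean of 2.52 genes near each against 1.87 for the members. Counts at promoters were not used by the rule, whereas the members were picked for their fold, so the folds of the promoters are set against those of other promoters. Of 1106 genes with a member within 50000 bp and promoter peaks with enough counts, 75 (6.78%, 5.37 to 8.43) had promoter counts at least 2-fold higher, against 3.51% of all genes, and the median ratio was 1.08. Among 177 genes that had both a member and RNA at least 2-fold higher, the median promoter ratio was 1.21 and 24 (13.6%) reached 2-fold. Genes with raised RNA and no member nearby had a like median, 1.20. Promoter peaks were counted under the same 2-fold rule in the same barcodes.

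The genes that chose the class had members close by. Inside Htra1, which encodes a secreted serine protease, lay 3 members: chr7:130945633-130946326 (588 class counts, rank 505), chr7:130946447-130946730 (215, rank 815) and chr7:130982277-130983145 (1228, rank 920). The last was the deepest of the 1000, at 90.6 CPM against 5.97 CPM and with a count in 55.1% of class barcodes against 5.08% of the others. Another 3 lay within 4139 bp inside Esrrb, an orphan nuclear receptor gene of trophoblast and pluripotent cells, at chr12:86462762-86466900 (ranks 197, 572 and 987, with 320, 485 and 203 class counts). Nat8l, the N-acetylaspartate synthase gene, had 2 members 15159 and 6774 bp away (ranks 335 and 702). The dual oxidase gene Duox2 had 1, inside the neighbouring gene Sord (rank 61, 24.9-fold). The RNA of these 4 genes chose the class and is no support for a link.

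Of 45 trophoblast genes listed for this report, 41 are autosomal, 11 of these had a member within 50000 bp and 14 within 100000 bp. The list was drawn up with earlier results of these data known. Of the 11, 4 are rule genes, and of the other 37 listed autosomal genes 7 (18.9%) had a member within 50000 bp, against 905 of 17040 autosomal genes tested (5.31%). Elf5 had a member 1789 bp beyond its starts and inside the gene (chr2:103425915-103426795, 663 class counts, 19.4-fold, 16.6 to 22.7), and another 50194 bp away (rank 414). Elf5 RNA was 10.7-fold higher in the class (10.1 to 11.3), and its promoter counts were 4.55-fold higher.

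Signalling genes of the list came next. Pcsk6, a convertase that cleaves TGF-beta family precursors, had 2 members at 5928 and 26064 bp and RNA 8.91-fold higher. Wnt7b, a Wnt ligand, had 1 member 7876 bp away inside the gene (rank 636) and RNA 9.21-fold higher. Bmp8b, a BMP ligand, had 1 member 36241 bp away and RNA 6.60-fold higher. Id2, an inhibitor of helix-loop-helix factors, had a member at chr12:25114408-25115306 with 800 class counts (18.3-fold, 40.0% of class barcodes), 17268 bp away, a second one at 72194 bp, and RNA 3.62-fold higher. Dusp6, an ERK phosphatase, and Spry4, a feedback inhibitor of receptor tyrosine kinases, each had 1 member (ranks 195 and 704), but their RNA differed by log2 ratios of only -0.02 and 0.11. Without the 4 rule genes, whose RNA was fixed by the choice of the class, 5 of 7 listed genes with a nearby member had RNA at least 2-fold higher, and so had 14 of the 30 listed genes with none, so the list was high in the class either way.

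Raised RNA was also found without a nearby member. Of the 41 autosomal genes, 23 had RNA at least 2-fold higher in the class, and 14 of these had no member within 50000 bp. Cdx2 RNA was 7.04-fold higher, and the best of its 7 candidates within 50000 bp ranked 1831 (11.7-fold). Bmp4 was 10.1-fold higher with a best rank of 2921 (8.71-fold), Gata3 6.24-fold with 2781, Klf5 5.50-fold with 1534, Tead4 4.43-fold with 1636 and Ets2 3.27-fold with 3659. Sox21 missed narrowly, at rank 1020 (14.7-fold). Within 100000 bp, the best candidate of Gata3 missed as narrowly, at rank 1008 (14.7-fold). Sox2 was the extreme: its RNA was 3.42-fold higher while its only candidate within 50000 bp stood at 1.15-fold. Tfap2c, a founding factor of the trophoblast, had RNA 4.53-fold higher and no member within 50000 bp, but 2 within 100000 bp, at 50136 and 89293 bp (ranks 488 and 382). Hand1 had 1 at 81129 bp and RNA 1.72-fold higher, and Ppp2r2c, a phosphatase subunit gene, had 2 at 91794 and 70116 bp and RNA 12.0-fold higher. Eomes had none, and RNA 1.26-fold higher. Fgf4, Nodal and Foxd3, genes of the epiblast, were at least 2-fold lower and had no member. Lower RNA did not mean a lack of class-open peaks. The only candidate of Foxd3 within 50000 bp ranked 1309 (13.4-fold). For Nodal this held only at the wider distance: its best candidate ranked 10297 (1.34-fold) within 50000 bp and 1656 (12.2-fold) within 100000 bp. For Fgf4 the best rank was 7453 (2.56-fold).

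Over all genes, the 15 with the most members within 50000 bp were Htra1, Esrrb and Zfp42 with 3 each, then 12 with 2. In all, 125 genes had 2 members, and the 12 are those whose members had the highest summed class counts. Zfp42 (Rex1), a zinc finger gene used as a marker of pluripotency, had 3 members within 50000 bp, on both sides of its starts (chr8:43267872-43268761, chr8:43325889-43326767 and chr8:43320447-43321449, ranks 126, 530 and 810), and a further one 89492 bp away. Its RNA was 10.4-fold higher (9.80 to 11.1). Of these 12, Amotl1, an angiomotin of the Hippo pathway (members of rank 916 and 973; RNA log2 ratio 1.29), Scarf2, a scavenger receptor (ranks 42 and 688; 3.71), and Gm36287 (2.48) had RNA at least 2-fold higher. Rin3, a Rab5 exchange factor (ranks 355 and 460; 0.98), the actin regulator Wasf2 (0.80), the FGF receptor Fgfr1 (0.49) and Gm31045 (-0.44) did not reach 2-fold. Gm29083, Gm17746, Gm34263, Gm7607 and BC016548 had too few UMIs. Several of these genes share their members: Gm17746 and Gm36287 have those near Id2, BC016548 those near Elf5, and Gm34263 and Gm7607 those near Amotl1.

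Among all other genes with a member within 50000 bp, the highest RNA ratio outside the rule genes was that of Il5ra, an interleukin receptor chain, at 28.5-fold from 121 class UMIs, with the member of rank 306. Duoxa2, the maturation factor of Duox2, shares its member and was 19.2-fold higher. Ccdc3 was 18.4-fold, Fam124a 15.7-fold and Tmem114 15.1-fold higher, the last with the member of rank 44. Dppa4 and Dppa2, neighbouring chromatin genes of pluripotent and early germ cells, share the member of rank 781 and were 14.5-fold and 9.10-fold higher. Itga7, a laminin-binding integrin chain, was 13.6-fold, Scarf2 13.1-fold, Prss50 11.8-fold, Inpp1, an inositol phosphatase, 10.3-fold with 2 members, and the splicing regulator Rbm20 10.2-fold higher. Myoz1, B830017H08Rik, Oxct2b and Synpo2l lay between 12.7 and 14.0-fold from 44 to 119 class UMIs, and Rusc2 and Prss44 stood at 10.1 and 9.93-fold. Together with Duox2, Esrrb, Nat8l, Htra1, Elf5, Zfp42 and Wnt7b, these are the 25 genes with a member within 50000 bp whose RNA ratio was highest, a choice made after the values were seen. Their promoters varied. Of the 24 with a promoter value, 11 were at least 2-fold higher there, led by Dppa4 (11.8-fold) and Dppa2 (8.34-fold), with Elf5, Zfp42, Synpo2l and Tmem114 between 3.85 and 4.55-fold. Among the 11, Duox2, Esrrb and Nat8l were rule genes, and Duox2 and Duoxa2 have 1 promoter peak with the same counts, which is counted for both. The promoter counts of Itga7, Inpp1 and Rbm20 stood at 1.37, 1.10 and 1.65-fold. Those of Scarf2, Oxct2b and Myoz1 were lower in the class, at 0.932, 0.342 and 0.238-fold, the last 2 from 34 and 9 class counts. Where 2 genes lie near 1 member, the data do not tell which of them, if any, it acts on.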

How the data were processed

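The authors deposited raw counts, per the file headers those of cellranger-arc 2.0.0: RNA UMIs for each gene and counts for each accessibility peak. The submitters' processing notes name Cell Ranger ARC 2.0.0 and mm10. There was 1 peak table, and for the peak caller nothing is given in the sources used here. The library totals were 182201512 UMIs and 273131304 peak counts over 15341 barcodes. Of nonzero peak values, 86.4% were even, so intervals on accessibility used estimated fragments (count divided by 2, rounded up).

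CPM were computed from pooled counts (Python 3.11.15, numpy 2.4.6, scipy), with a floor of 3 counts per group. Distances ran to the lowest or highest start that the files list for a gene, and 32158 of 32285 gene identifiers were in the reference name table. RNA ratios needed at least 50 UMIs. With 1 library per assay no test was made, and a 2-fold ratio was the mark used. Intervals were exact at 95%. Those of ratios were conditional on the sum and cover counting error only. Those of shares were binomial (Clopper-Pearson) over genes or peaks taken as independent. Scrublet (scanpy 1.11.5, expected rate 0.1) marked 1154 barcodes (7.52%) as doublets from their RNA, and these were kept in the main analysis. The ranking was tested on simulated data, in which the raised peaks had at least 1000 counts in the other barcodes. The members had a median of 194 there, so the simulation does not cover peaks as sparse as most of them. The 9 comparison types took up to 300 barcodes each by marker RNA. Members and gene lists were chosen with earlier results of these data known. Named were the 15 members of highest fold, 5 on each side of rank 1000, the 15 genes with most members within 50000 bp (ties by class counts), and the trophoblast genes with a member within 50000 or 100000 bp; others are said to be chosen after their values were seen. No deposited sample column was left unused, and a search for motifs across all members needs a genome sequence and was not made.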

Additional observations from a re-analysis of the deposited data

Results flagged for a closer look

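The rule kept autosomal peaks only. On the X chromosome, 30 of 260 distal peaks with at least 100 class counts (11.5%) reached the fold of the last member; the highest stood at 27.4-fold (17.5 to 43.7) near H2al1k. They included a peak 9980 bp from Nr0b1, a gene used to choose the class (17.0-fold), one 1475 bp from the homeobox gene Rhox4g, whose RNA had a log2 ratio of 3.88, and one 76788 bp from Sox3 (2.55).

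The depth range also left barcodes out. Of 2291 barcodes outside it with at least 1000 UMIs and 1000 peak counts, 184 had a share of counts at the members above the 5th percentile of the class. Inside the range, 665 of the 700 class barcodes and 346 of the 10905 others lay above the same mark.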

How the results depend on the processing

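Every result rests on 1 library per assay, with sparse counts at many members, and on a class cut from a score. No paired analysis was possible because the labels carry no replicate numbers and each assay has 1 library. The motif search and its 2 window alternatives were not run, since they need a genome sequence. Of the 1000 members, 723 were kept when the class was chosen by 9 other extraembryonic ectoderm markers, a class that shared 430 of 700 barcodes, and 562 when at least 200 class counts were asked, which many members lack; the other settings kept 783 or more. The ratio of the same members, 18.3, became 14.8 with a class of 500 and 24.9 with 1000, 21.8 without doublet calls, 17.3 with barcodes from 1000 UMIs, 17.6, 17.9, 17.9, 17.7 and 17.7 without Esrrb, Duox2, Nat8l, Htra1 and Nr0b1 in the score, 13.7 with the other markers, 17.7 on fragments, 16.6 on peaks set to 0 or 1 and 17.4 per barcode. The share of nearby genes with raised RNA, 20.6%, lay between 19.9% and 21.4% over the class alternatives. It was 27.9% within 20000 bp and 15.8% within 100000 bp. At a minimum of 10 UMIs the value was 27.3%, and 14.7% over all autosomal genes. There the floor on counts can lift a gene without class UMIs over the 2-fold mark. Neither of these values can therefore be read as a share of genes with raised RNA. The class over the 9 types, 32.9-fold, was 32.5 with 50% as many barcodes per type, 31.4 with 1.5 times as many and 36.8 without doublet calls. Shares of single types moved by up to 1.43 times, and their order turned: extraembryonic mesoderm became the highest (0.118%) with 1.5 times as many barcodes and fell behind haemato-endothelial progenitors (0.0614% against 0.0852%) with 50% as many.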
